A study of Homo sapiens with 8 samples.

Results

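The dasatinib-resistant subline of A204, named DasR, was set against the sublines resistant to pazopanib (PazR) and to sunitinib (SunR), as 1 array against 2. These are the 3 resistant arrays of 8 in the study, picked by their labels, and all 48107 probes were read. A204 is an established human malignant rhabdoid tumor (MRT) line with a deletion of SMARCB1, which encodes part of the core of SWI/SNF, a complex that remodels chromatin. All 3 sublines were derived from it by stepwise dosing with dasatinib, pazopanib or sunitinib, from 500 nM through 2 µM and 3 µM to 5 µM over 6 weeks, and were kept at 5 µM of their own drug. For each probe, the difference between sublines was set beside the same drug difference in the parental cells, which is printed for some of the named genes. In that set, 1 array each came from A204 in 5 µM dasatinib, pazopanib or sunitinib. A further 2 arrays came from untreated parental cells. Their labels say no drug, while a legend of the study speaks of DMSO, so that the vehicle is not settled. Each subline is 1 line with 1 array, and the time for which the parental cells were treated is not given in the sources used here. What is particular to dasatinib resistance and what is particular to this 1 culture therefore cannot be told apart.

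Tyrosine kinase inhibitors (TKIs) block the ATP pocket of kinases, and tumor cells kept in them can grow out with another receptor, another survival signal or another cell state in use. Dasatinib differs from the other agents in its targets. It inhibits the SRC family, ABL, DDR and EPH kinases beside the PDGF receptors and KIT, whereas pazopanib and sunitinib act mainly on the VEGF receptors, the PDGF receptors and KIT. MRT cells are known for signaling through PDGF and FGF receptors. FGF ligands are held in the matrix, and secreted FGF-binding proteins can release them to their receptors.

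Signals are log2 intensities, so that a difference of 1 is a 2-fold difference in intensity. Every array had a median signal of 6.67 over all probes, because the table was quantile normalized. A signal near that level is dim, and whether the transcript was detected there is not known. With 1 array of DasR there is no replicate spread and no test, and all values below are descriptions. A probe was called where DasR lay more than 1 above both other sublines or more than 1 below both. The gap is the distance from DasR to the nearer of them. By any amount, DasR lay above both in 36.9% of the probes and below both in 33.1%. As a measure of spread, the 2 untreated arrays differed by over 1 in 614 probes (1.28%), with a median absolute difference of 0.181 in the brighter 50% of the probes. They correlated at r = 0.983 (Pearson, all probes), and each was slightly closer to other arrays. Replicate 1 correlated at 0.988 with PazR and 0.984 with DasR, and replicate 2 at 0.984 with parental cells in sunitinib. PazR and SunR differed by over 1 in 489 probes.

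DasR stood apart mainly by lower signals. It was called higher in 59 probes (0.123% of all probes tested) and lower in 245 (0.509%). These probes named 50 genes as higher (0.249% of 20046) and 192 as lower (0.958%), and no gene was called both ways. The untreated pair differed by over 1 in none of the 59 higher probes and in 4 of the 245 lower ones, and by more than the gap itself in 3. Over the same probes, PazR stood apart from the other sublines in 41 upward and 29 downward, and SunR in 286 upward and 71 downward. In treated parental cells the dasatinib array stood apart in 2 probes upward (0.00416%) and 2 downward (0.00416%). The pazopanib array did so in 2 and 4, and the sunitinib array in 194 and 197. DasR was thus the subline with the most probes lying below both others. In both directions together SunR had more, with 357 against 304 in DasR. In parental cells dasatinib and pazopanib both gave few probes that stood apart.

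**Figure D1:**
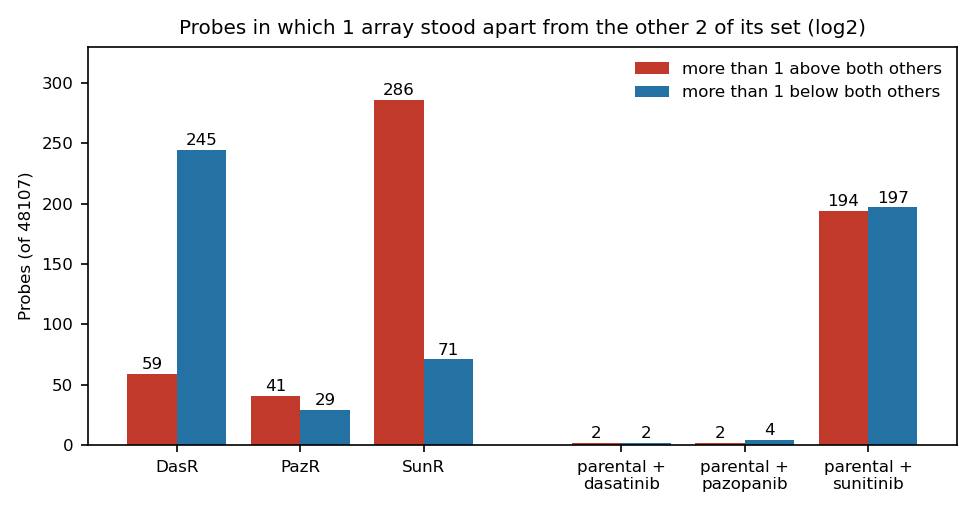
Number of probes (of 48107) in which 1 array lay more than 1 log2 unit above (red) or below (blue) both other arrays of its set, for the 3 sublines and the 3 treated parental arrays, 1 array each. DasR has 59 above and 245 below, whereas parental cells in dasatinib have 2 and 2.

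Most of the calls had no counterpart among the treated parental arrays. Of the 59 higher probes, 50 (84.7%) had a parental drug difference, dasatinib minus the mean of pazopanib and sunitinib, of less than 0.5 in size. Another 7 had a difference of 0.5 or more in the same direction and 2 in the opposite direction. Of the 245 lower probes, 214 (87.3%) had a small parental difference, 20 had one in the same direction and 11 in the opposite direction. This difference uses the mean of pazopanib and sunitinib, so that 1 of those drugs alone can set it. The dasatinib array itself stood apart by over 1 in the same direction in 1 of the 59 and 0 of the 245. A parental drug difference of 0.5 or more was found in 1012 of all probes (2.1%). The median difference of DasR from the mean of PazR and SunR was 1.55 over the higher probes and -1.65 over the lower ones, beside parental medians of 0.13 and -0.02. After the parental difference was subtracted, 48 of the 59 and 220 of the 245 still differed by over 1. Across the 24054 brighter probes, the subline and parental differences, which share no array, correlated at r = 0.148 (Pearson) for dasatinib, against 0.220 for pazopanib and 0.216 for sunitinib. Probes are not independent replicates, so these values are descriptions.

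**Figure D2:**
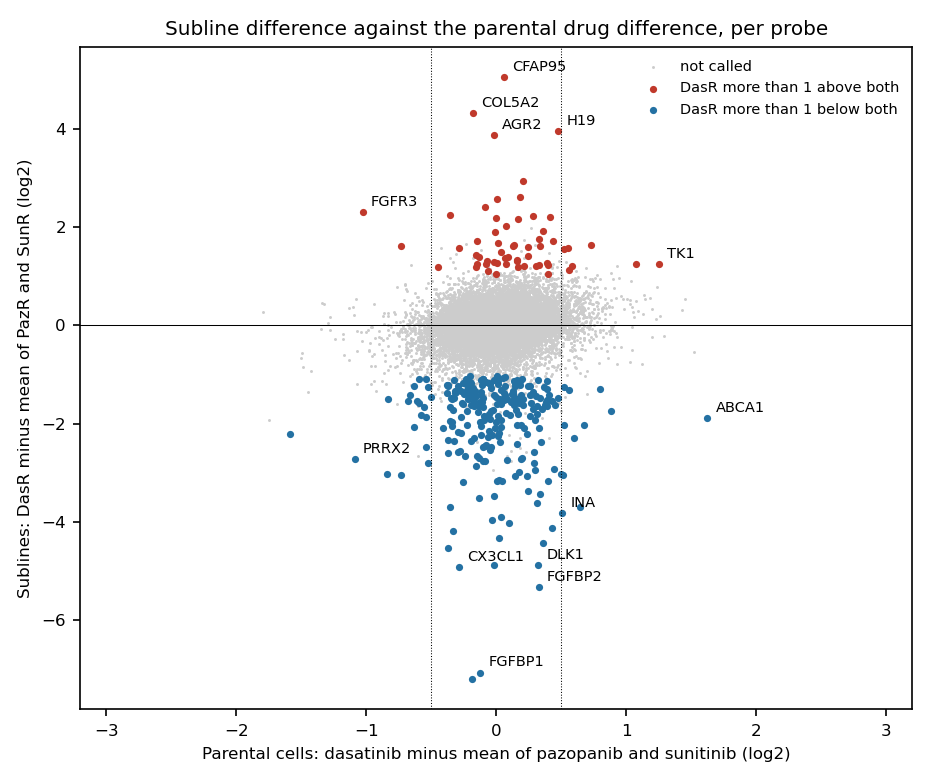
Difference of DasR from the mean of PazR and SunR (vertical axis, log2) against the difference of dasatinib from the mean of pazopanib and sunitinib in parental cells (horizontal axis, log2), 1 point per probe. Probes called higher (red, 59) and lower (blue, 245) lie mostly within 0.5 of 0 on the horizontal axis, with FGFR3 and ABCA1 among those off it.

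Against untreated cells, DasR had moved away in some of the calls and the other sublines in others, and many calls fell in neither group. Of the 245 lower probes, 72 (29.4%) had DasR more than 1 below both untreated arrays with PazR and SunR within 1 of them. In 52 (21.2%) DasR lay within 1 of the untreated arrays and both other sublines lay more than 1 above them. In another 19 DasR lay below while 1 or both others lay above. In 36 DasR lay within 1 of the untreated arrays and only 1 other subline lay above them. The other 66 had none of these patterns. Of the 59 higher probes, 28 had DasR alone past the untreated level and 3 had only the others past it. In 3 more DasR lay above while 1 or both others lay below. Another 3 had only 1 other subline below, and 22 had none of these patterns. DasR lay more than 1 above all 7 other arrays in 36 probes (0.0748% of all) and more than 1 below all 7 in 86 (0.179%).

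**Figure D3:**
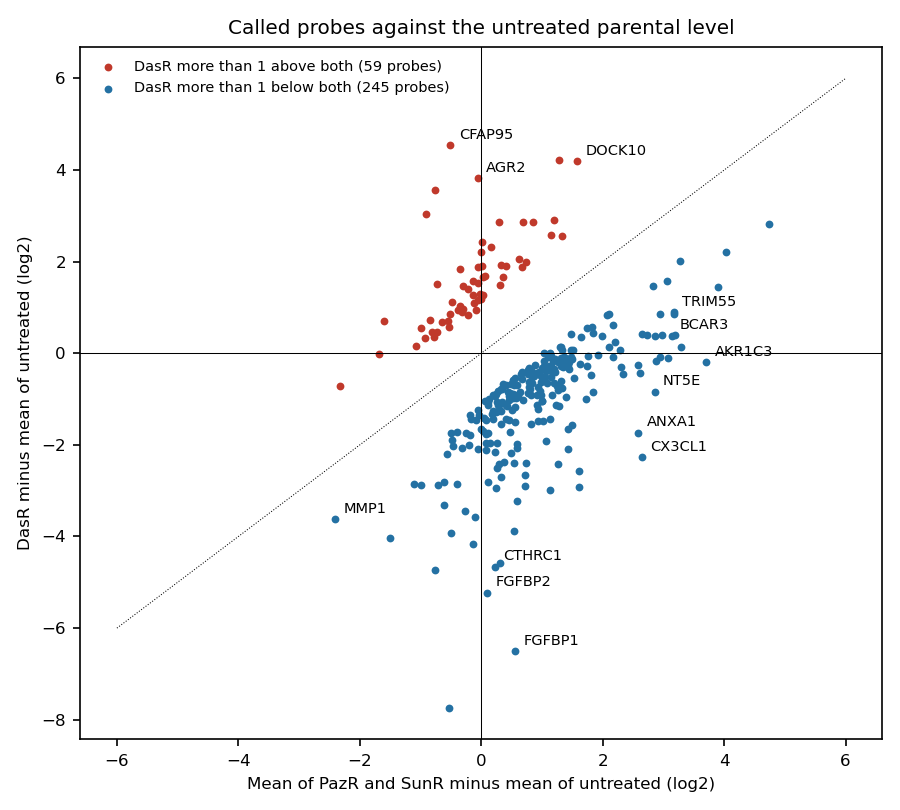
Called probes by the mean of PazR and SunR minus the mean of the untreated arrays (horizontal axis, log2) and by DasR minus the mean of the untreated arrays (vertical axis, log2). Points low on the vertical axis near 0 on the horizontal axis, such as FGFBP1, are those in which DasR alone left the untreated level, and points far right near 0 on the vertical axis, such as AKR1C3, are those in which the other sublines did.

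The 2 named genes furthest below were neighbours on chromosome 4 that encode secreted FGF-binding proteins. FGFBP1, which carries FGFs from the matrix to their receptors, had a signal of 6.88 in DasR, 14.05 in PazR and 13.84 in SunR. In parental cells it was 13.59 in dasatinib, 13.82 in pazopanib, 13.61 in sunitinib, and 13.44 and 13.33 without drug. Its signal was therefore bright in 7 arrays and at the dim level in DasR only, a gap of -6.96 beside a parental drug difference of -0.13. FGFBP2, its paralog, had 8.52 in DasR, 14.05 in PazR and 13.63 in SunR, against 13.60 to 14.25 in all 5 parental arrays. DasR again stood alone, with a gap of -5.11. Because detection at the level of FGFBP1 in DasR is not known, no fold is given. Each of these genes had 1 probe.

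Because both genes were low together, their promoters are shown, 300 bases around the RefSeq start (GRCh38.p14, minus strand, written 5′ to 3′), with each CG in capitals. The FGFBP1 window is chr4:15938691-15938990 and the FGFBP2 window is chr4:15963126-15963425.
FGFBP1: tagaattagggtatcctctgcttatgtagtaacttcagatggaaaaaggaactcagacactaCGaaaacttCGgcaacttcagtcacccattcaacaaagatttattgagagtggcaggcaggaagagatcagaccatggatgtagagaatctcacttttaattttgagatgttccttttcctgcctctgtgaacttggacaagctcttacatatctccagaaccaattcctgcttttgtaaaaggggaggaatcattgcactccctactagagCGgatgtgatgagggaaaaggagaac
FGFBP2: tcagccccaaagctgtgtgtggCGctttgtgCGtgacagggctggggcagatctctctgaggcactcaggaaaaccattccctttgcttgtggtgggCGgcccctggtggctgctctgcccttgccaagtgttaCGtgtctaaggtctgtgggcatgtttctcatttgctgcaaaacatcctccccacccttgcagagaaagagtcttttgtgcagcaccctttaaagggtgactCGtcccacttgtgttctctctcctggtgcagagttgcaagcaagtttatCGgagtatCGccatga
They hold 3 and 7 CG, where the median over 15034 promoters of measured genes was 22. A promoter was found for 39 of the 50 higher and 149 of the 192 lower genes, with medians of 24 and 25 CG. The FGFBP2 window holds 1 of the motifs searched on both strands, GGAATG (the TEAD core), which 11.6% of all promoters held, 15.4% of those of the higher genes and 10.7% of those of the lower genes. The FGFBP1 window held none of the 5. Of the other 4, the AP-1 site TGANTCA was in 5.85%, 7.69% and 6.04% of the same sets, the CRE TGACGTCA in 2.66%, 7.69% and 4.70%, the E-box CACGTG in 8.89%, 15.4% and 12.8%, and the TATA box TATAAA in 9.53%, 10.3% and 11.4%.

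Further secreted and matrix proteins were among the lowest genes. CTHRC1, a secreted protein with a collagen-like repeat, had 7.64 in DasR, 12.63 in PazR and 12.39 in SunR, and lay between 11.88 and 12.89 in the parental arrays. Its second probe had 7.20, 11.50 and 10.95 in the sublines. STC1, a secreted glycoprotein hormone, had 6.50 in DasR, 10.86 in PazR and 10.07 in SunR, against 10.63 to 11.27 in the parental arrays. In both genes DasR lay below all 7 other arrays. PazR and SunR lay within the untreated range for CTHRC1, and 0.32 and 1.11 below it for STC1. DLK1, a paternally expressed membrane protein related to NOTCH ligands, had 8.92 in DasR, 13.55 in PazR and 14.05 in SunR, and 13.46 to 14.32 in the parental arrays. The second DLK1 probe, at 7.15 against 11.15 and 12.01, had the same order. PAPPA, a protease that cleaves IGF-binding proteins, had 8.01, 11.22 and 11.17 in the same order of sublines, and IGFBP6, a binding protein for IGF2, had 7.89, 11.27 and 12.75. PAPPA in PazR and SunR lay within 0.19 of the untreated range, whereas IGFBP6 in SunR lay 1.75 above it.

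A pair of the lowest genes had diverged from the untreated level in both directions. CX3CL1, the membrane-bound chemokine fractalkine, had 7.08 in DasR, 10.80 in PazR and 13.20 in SunR, with 9.42 and 9.29 in untreated cells. DKK3, a secreted member of the Dickkopf family, had 6.99, 10.88 and 12.17, with 10.04 and 9.80 in untreated cells. For both genes the untreated signals lay between DasR and the other sublines. In treated parental cells CX3CL1 had 8.53 in dasatinib, 7.65 in pazopanib and 9.98 in sunitinib. ANXA1, a phospholipid-binding protein, ran the same way, with 7.28 in DasR, 10.84 in PazR, 12.36 in SunR, and 9.25 and 8.77 without drug. A second DKK3 probe was called as well (gap -3.62), while the other 2 DKK3 probes were dim in every array.

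The rest of the 15 lowest genes had gaps between -2.98 and -3.37. They were TOX2, an HMG-box protein, GRIA2, an AMPA receptor subunit, SLC39A8, a zinc and manganese importer, CYP24A1, the enzyme that inactivates vitamin D, and PRAG1, a pseudokinase scaffold that binds the SRC inhibitor kinase CSK. GRIA2 had 7.72 in DasR, 11.39 in PazR and 10.90 in SunR, and 11.32 to 12.50 in the parental arrays. CYP24A1 had 6.56, 9.61 and 9.56 in the sublines, and 9.09 to 9.97 in the parental arrays. PRAG1 had 8.21, 11.18 and 11.52, and 10.44 to 11.03. In these 3 genes DasR alone was low.

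Among the higher genes, the 2 with the widest gaps were dim in all arrays except DasR. CFAP95, a protein of cilia and flagella, had 11.65 in DasR, 6.57 in PazR and 6.63 in SunR, with 6.70 to 7.13 in the parental arrays. AGR2, a protein disulfide isomerase of the endoplasmic reticulum, had 10.45, 6.61 and 6.53, with 6.61 to 6.64 in the parental arrays. The gaps were 5.03 and 3.84. A second AGR2 probe stayed dim, at 6.97 in DasR against 6.53 and 6.51, and CFAP95 had 1 probe.

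Collagen genes differed in both directions. COL5A2, a chain of type V collagen, had 12.54 in DasR, 9.49 in PazR and 6.93 in SunR, with 8.85 to 9.29 in the parental arrays. COL3A1, the type III collagen chain encoded near it on chromosome 2, had 9.09, 6.87 and 6.47, with 6.65 to 6.85 in the parental arrays. DasR was the highest of 8 arrays for both. COL5A1, the partner chain of COL5A2, ran the other way, with 6.98 in DasR, 8.46 in PazR and 8.60 in SunR, and COL18A1, the basement membrane collagen that yields endostatin, had 7.45, 10.38 and 10.48. COL2A1, the cartilage collagen, was called lower as well, with 6.57, 8.28 and 7.59. Over the extracellular matrix list, 2 of 38 measured genes were called higher and 3 lower (the third was COL6A1, gap -1.01). Over all 20046 genes, 0.249% were called higher and 0.958% lower. The median difference was 0.00 for the list and also 0.00 for all genes.

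IL17RB, a receptor chain for interleukins of the IL-17 family, and CHDH, the mitochondrial choline dehydrogenase, lie head to head on chromosome 3 and were both high in DasR only. IL17RB had 9.52 in DasR, 7.02 in PazR, 6.85 in SunR and 6.55 to 6.74 in the parental arrays. CHDH had 9.16, 7.08, 6.91 and 6.62 to 6.88, while its second probe was dim throughout (6.85 in DasR). Their promoter windows overlap on opposite strands, and they are shown for that reason with each CG in capitals (RefSeq, GRCh38.p14, each 5′ to 3′ on its own strand). The IL17RB window is chr3:53846318-53846617 on the plus strand and the CHDH window is chr3:53846370-53846669 on the minus strand.
IL17RB: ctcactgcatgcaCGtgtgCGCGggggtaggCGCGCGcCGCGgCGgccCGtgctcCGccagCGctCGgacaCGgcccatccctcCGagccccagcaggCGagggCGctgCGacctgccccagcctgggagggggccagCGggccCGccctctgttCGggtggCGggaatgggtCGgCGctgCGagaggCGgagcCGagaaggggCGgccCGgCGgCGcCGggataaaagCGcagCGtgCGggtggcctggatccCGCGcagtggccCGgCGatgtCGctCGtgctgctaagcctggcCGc
CHDH: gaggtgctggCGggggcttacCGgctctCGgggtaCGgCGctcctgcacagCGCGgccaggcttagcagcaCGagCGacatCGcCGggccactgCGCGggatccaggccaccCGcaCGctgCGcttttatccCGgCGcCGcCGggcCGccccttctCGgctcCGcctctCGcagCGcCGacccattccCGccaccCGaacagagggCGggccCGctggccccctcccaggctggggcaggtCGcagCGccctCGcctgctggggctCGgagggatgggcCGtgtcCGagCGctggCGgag
These hold 42 and 38 CG, above the median of 22. The E-box CACGTG lies in the IL17RB window outside the shared stretch, and GGAATG lies in both windows.

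Other called genes also lay side by side. Of 19995 pairs of measured genes that follow each other in the annotation, 15 had both members called, 2 higher and 13 lower, and none with opposite directions. Of all 20046 genes, 50 (0.249%) were called higher and 192 (0.958%) lower. Some pairs shared a member, such as BAALC with FZD6 and FZD6 with CTHRC1. ABCA5 with MAP2K6 lay on distal 17q and BIVM with ERCC5 on chromosome 13, and both regions are read below. Besides FGFBP1 with FGFBP2 and CHDH with IL17RB, they included DLK1 with MEG3, AKR1C2 with AKR1C3, and FZD6 with CTHRC1. AKR1C2 and AKR1C3 are near-identical in sequence, so their probes may share transcripts.

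H19, a maternally expressed noncoding RNA, was high in DasR, with 13.09 against 9.65 in PazR and 8.62 in SunR. The untreated arrays had 10.06 and 10.04, and the treated parental arrays 10.77 in dasatinib, 11.24 in pazopanib and 9.35 in sunitinib, so that the parental difference was 0.48 of the 3.95 between sublines. Of 22 imprinted genes measured, H19 was called higher (0.249% of all genes were) and DLK1, MEG3 and SGCE lower (0.958%). MEG3, the maternally expressed noncoding RNA beside DLK1, had 11.29 in DasR, 12.96 in PazR and 13.28 in SunR. DasR was level with the untreated signals of 11.43 and 11.30, whereas DLK1 in DasR was far below its untreated level, so the neighbouring calls differed in which subline had moved. SGCE, a sarcoglycan, had 7.31, 9.63 and 10.06, with 11.19 to 11.55 in the parental arrays, and was thus below the parental level in all 3 sublines. IGF2, the paternally expressed neighbour of H19, was dim in all arrays, at 6.71 in DasR.

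The remaining 15 highest genes were MYEOV, the cell adhesion protein CXADR, the CDC42 and RAC exchange factor DOCK10, the transcription factor SOX8, the autophagy protein MAP1LC3C, the secreted ligand BMP7, the creatine kinase CKB and the receptor FGFR3. DOCK10 had 11.03 in DasR, 9.18 in PazR and 7.64 in SunR, against 6.69 to 6.95 in the parental arrays. MAP1LC3C had 11.43, 9.64 and 7.34, against 6.93 to 7.26. In these 2 genes PazR lay above the parental level as well, and DasR further above it. CXADR had 9.43, 7.41 and 7.40, and BMP7 9.48, 6.79 and 7.79, with parental signals from 6.37 to 6.65 over both.

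**Figure D4:**
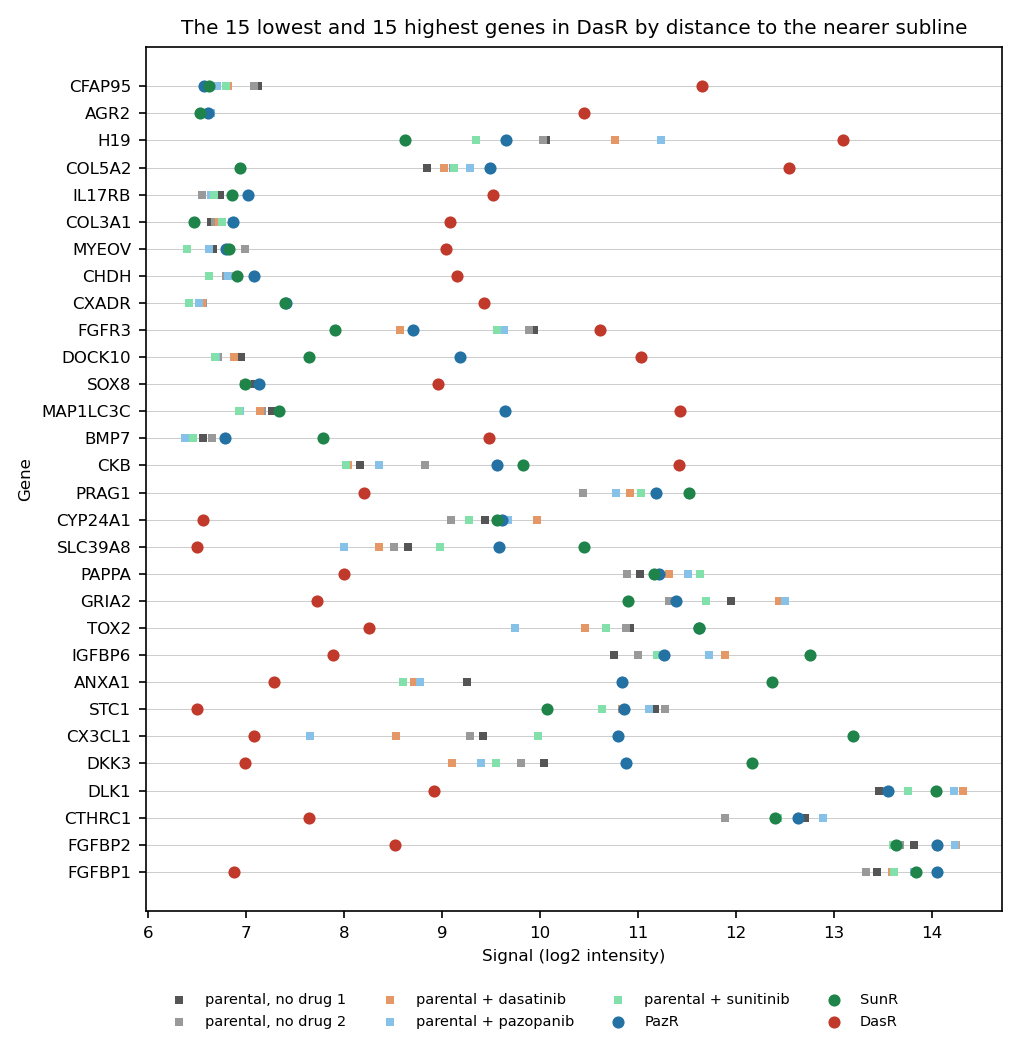
Signal (log2 intensity) of the 15 lowest and 15 highest genes by gap, 1 symbol per array: circles are DasR, PazR and SunR, squares the treated and untreated parental arrays. FGFBP1 is at 6.88 in DasR and between 13.33 and 14.05 elsewhere, and CFAP95 at 11.65 in DasR and at or below 7.13 elsewhere.

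FGFR3, an FGF receptor, differed in opposite directions between sublines and between drugs in parental cells. Its signal was 10.62 in DasR, 8.71 in PazR and 7.91 in SunR. In parental cells it was 8.57 in dasatinib, 9.63 in pazopanib and 9.57 in sunitinib, and 9.94 and 9.89 without drug. DasR was therefore the highest of the sublines, by 1.91, and dasatinib gave the lowest of the treated parental signals, with a gap of -0.995. Against untreated cells, DasR lay 0.67 above and PazR and SunR lay 1.18 and 1.98 below. A second FGFR3 probe was dim in every array (6.87 in DasR). Of the other receptors, AXL had 6.67 in DasR, 8.64 in PazR and 7.79 in SunR, and 8.12 to 9.41 in the parental arrays. It was the only 1 of 38 receptor tyrosine kinases called lower (0.958% of all genes were). Its second probe had a gap of -0.63. PDGFRA was close in all 3 sublines, at 9.63, 10.45 and 9.87, and 12.08 to 12.60 in the parental arrays. FGFR1 was at 7.89, 7.88 and 7.72 by its brighter probe. KIT, CSF1R and PDGFRB were dim in the 3 sublines, at 6.72 or below on every probe, and EGFR at 6.87 or below except for 1 of its 4 probes, which had 7.46 in SunR, 6.50 in DasR and 6.47 in PazR.

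Of 31 ligands of receptor tyrosine kinases, 3 were called lower (0.958% of all genes were) and none higher (0.249%). The median difference of the list was -0.046. DasR lay below both other sublines in 16 of the genes (6960 of 20046 overall) and above both in 9 (7351 overall). MDK, the heparin-binding growth factor midkine, had 6.86 in DasR, 10.87 in PazR and 9.19 in SunR, against 10.05 to 12.06 in the parental arrays. FGF1, a ligand of all FGF receptors, had 6.67, 8.17 and 8.15, against 6.95 to 7.41 in the parental arrays. GAS6, the ligand of AXL, had 8.83, 10.52 and 10.23. DasR was the lowest of 8 arrays for each of them. For FGF1 it lay only 0.28 below the untreated range, whereas PazR and SunR lay 0.77 and 0.75 above it. The other FGF1 probes were not called (gaps -0.52 and -0.12). MDK had 4 further probes, none above 7.35 in any array.

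Of 21 genes for the SRC family and other kinase targets of dasatinib, 0 were called, where 0.249% of all genes were called higher and 0.958% lower, so that a count of 0 is near the background. Their median difference was -0.17, with -0.06 against PazR and -0.21 against SunR. DasR lay below both other sublines in 12 of them (6960 of 20046 genes overall) and above both in 5 (7351 overall). YES1, a SRC family kinase, had 9.66 in DasR, 10.24 in PazR and 10.12 in SunR, and SRC itself 8.42, 8.26 and 8.33. BCAR3, an adaptor that links SRC signaling to BCAR1, was called lower, with 7.35, 9.72 and 10.47. The untreated arrays had 6.95 and 6.97, so it was PazR and SunR that lay above the parental level.

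That second pattern, in which the other sublines had left the untreated level and DasR had not, held for several enzyme and stress genes. AKR1C3, an aldo-keto reductase of steroid and drug metabolism, had 6.76 in DasR, 9.67 in PazR and 11.65 in SunR, with 6.84 to 7.11 in the parental arrays. AKR1C2 had 6.73, 8.71 and 11.06, with 6.51 to 6.67, on the only 1 of its probes that was called. Its other probes did not exceed 7.55 in any array. For both genes DasR was at the dim parental level. ALDH3A2, a fatty aldehyde dehydrogenase, had 7.53, 8.92 and 9.03, with 7.66 and 7.76 in untreated cells. NT5E, the ecto-5′-nucleotidase CD73, had 6.64, 8.72 and 11.95, with 7.44 and 7.52 in untreated cells. ACTA2, smooth muscle actin, had 9.95, 13.40 and 12.56, with 10.56 and 10.18. ATF3, a stress-induced transcription factor, had 8.04, 9.62 and 10.40, with 7.96 and 7.86, and GDF15, a secreted stress cytokine, had 8.16, 9.68 and 11.59, with 7.61 and 7.94. SMARCA2, an ATPase of the SWI/SNF complex, had 9.77 in DasR, 11.13 in PazR and 11.22 in SunR, with 9.54 and 9.14 in untreated cells. SMARCA2 was the only 1 of 23 SWI/SNF subunits called, where 0.958% of all genes were called lower. SMARCB1 was dim in the sublines, at 6.67, 6.85 and 6.66.

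The S phase and mitosis lists were higher in DasR by about as much as dasatinib exceeded the other drugs in parental cells. Of 35 S phase and DNA replication genes, 29 lay above both other sublines (7351 of 20046 genes did so overall). Their median difference was 0.52 between sublines and 0.53 between drugs in parental cells. TK1, a thymidine kinase, was called, with 10.74 in DasR, 9.62 in PazR and 9.36 in SunR, and had 10.49, 9.46 and 9.03 in parental cells in the same drugs. MCM3, a subunit of the replicative helicase, was called by 1 probe, with 10.50, 9.47 and 9.01, beside 10.62, 10.08 and 9.02 in parental cells. The order of the drugs was thus the same in both sets for both genes. Of 34 genes of G2 and mitosis, 29 lay above both and none was called, with medians of 0.39 and 0.35. A further cell cycle list, the cyclin D axis and CDK inhibitors, had a median of -0.22 beside 0.02 in parental cells. Of its 12 genes, 7 lay below both (6960 of 20046 overall), 3 lay above both and none was called. Over all genes, 0.249% were called higher and 0.958% lower. Relative to untreated cells, the S phase median was -0.08 in DasR, -0.53 in PazR and -0.77 in SunR.

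Other calls in the same direction as the drug included AIF1L (gap 1.56), CA12, a membrane carbonic anhydrase (1.499), RAD51C, a recombination protein (1.14), and INF2, a formin (1.11). The INF2 call rested on 1 of 4 probes, and its brightest probe had a difference of -0.30. On the lower side were CYP26B1, which degrades retinoic acid (-2.42), PRRX2, a mesenchymal homeobox factor (-2.35), NUPR1, a stress-induced chromatin protein (-1.99), and SPACA9 (-1.60). PRRX2 had 7.97, 8.07 and 10.04 in parental cells in dasatinib, pazopanib and sunitinib, so its parental difference came from the high signal in sunitinib. NUPR1 had 6.70 in DasR, 8.69 in PazR and 10.81 in SunR, and 7.42, 7.01 and 9.31 in parental cells in the same drugs. Sunitinib gave the highest NUPR1 signal in both sets, and DasR lay at the untreated level of 6.99 and 6.75.

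Calls opposite to the drug difference were few. SMAGP, a small membrane glycoprotein, had 7.18 in DasR, 9.99 in PazR and 11.77 in SunR, and 10.56, 9.89 and 9.92 in parental cells in dasatinib, pazopanib and sunitinib. AKAP12, a scaffold for protein kinases A and C, had 7.87, 9.37 and 10.40, and 8.61, 7.86 and 8.01. On these probes dasatinib gave the highest of the 3 treated parental signals and DasR the lowest among sublines. The brighter probe of each gene kept the low signal in DasR, but its parental difference was smaller (0.32 for SMAGP and 0.21 for AKAP12). The brighter SMAGP probe had 11.88 in parental cells in dasatinib and 11.96 in sunitinib, and the brighter AKAP12 probe had 8.27 and 8.23. ABCA1, a cholesterol efflux transporter, had 7.59, 10.20 and 8.75, and 10.50, 10.17 and 7.58, where the parental difference of 1.62 came from the low signal in sunitinib. INA, ACTA2, ST3GAL5 and RCOR2 also had parental differences of 0.5 or more the other way. For RCOR2 the parental signals were 7.56 in dasatinib, 7.78 in pazopanib and 8.82 in sunitinib, so its difference lay mainly with sunitinib.

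Of the other gene groups, antigen presentation and the lysosome lay lower in DasR, with a smaller or opposite drug difference in parental cells. Among 19 genes of antigen processing and MHC, 15 lay below both other sublines and none above both. Over all 20046 genes, 6960 lay below both and 7351 above both. The median was -0.32 between sublines and 0.07 between drugs, with -0.18 against PazR and -0.51 against SunR. HLA-B had 9.01 in DasR, 10.20 in PazR and 11.02 in SunR, with 8.55 and 8.69 in untreated cells, and HLA-F had 8.76, 9.81 and 10.60, with 8.63 and 8.75. DasR lay near the untreated level in both, and the other sublines above it. HLA-DRA was called by 1 of 2 probes (gap -1.03), and its brighter probe had -0.43. Of 23 lysosome genes, 17 lay below both, and TPP1, a lysosomal peptidase (gap -1.01), and LAMP1, a lysosome membrane protein (-1.08), were called, with medians of -0.33 and -0.18. The lysosome median was -0.11 against PazR and -0.54 against SunR. The unfolded protein response had a median of 0.36 beside -0.02 in parental cells, with 9 of 16 genes above both, 5 below both and none called. Its median was 0.17 against PazR and 0.51 against SunR. SDF2L1, a chaperone partner of the endoplasmic reticulum, had 10.15 in DasR, 9.40 in PazR and 8.88 in SunR, and DasR there matched the untreated signals of 10.15 and 9.80. Transcripts of ERK pathway output had a median of -0.42 beside 0.15, with 10 of 20 genes below both, 3 above both and none called. Their median was -0.09 against PazR and -0.64 against SunR. Relative to untreated cells it was -0.13 in DasR, -0.08 in PazR and 0.35 in SunR. Epithelial, leukocyte and endothelial marker lists (23, 18 and 13 genes measured) had no call, and the neural and myogenic lists had 1 each, GRIA2 and TRIM55. The cartilage and bone list had 3 of 26 measured genes called lower, RUNX3, COL2A1 and SOST. The list of mesenchymal transcription factors and markers had 2 of 31 called lower, DLX1 and NT5E. Over all genes, 0.249% were called higher and 0.958% lower, so that counts of 0 or 1 are near the background.

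A pair of chromosome regions was read as well, because the study also profiled DNA copy number in the sublines. It reports, for DasR only among the sublines, gains on distal 17q and losses along the long arm of chromosome 13. Whether copy number accounts for the values below was not tested. For the distal long arm of chromosome 17, from the HOXB cluster to the end, the median difference over 284 genes was 0.30 (parental -0.01), and 67.3% lay above both other sublines, against 37.8% of genes outside the 2 regions. For chromosome 13 the median over 216 genes was -0.16 (parental -0.05), and 58.3% lay below both, against 35.8% elsewhere. These medians cover genes with a probe in the brighter 50%, and over all probes they were 0.11 for distal 17q and -0.046 for chromosome 13. By any probe, 404 genes of distal 17q were measured, of which 11 were called higher, among them CYB561, ABCA5, RAD51C and TK1, and 2 lower, ABCC3 (gap -1.28) and NPTX1 (-1.33), beside 0.249% and 0.958% of all genes. On chromosome 13, 14 of 346 genes (4.05%) were called lower and none higher, among them GAS6, BIVM, GGACT, TPTE2P6 and LAMP1. In windows of 41 neighbouring genes, the median reached 0.48 on chromosome 17 (COIL to INTS2) and -0.49 on chromosome 13 (FARP1 to CHAMP1), while windows on the other chromosomes stayed between -0.23 and 0.26. FGFBP1, CFAP95, AGR2 and the other genes of widest gap lay elsewhere.

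**Figure D5:**
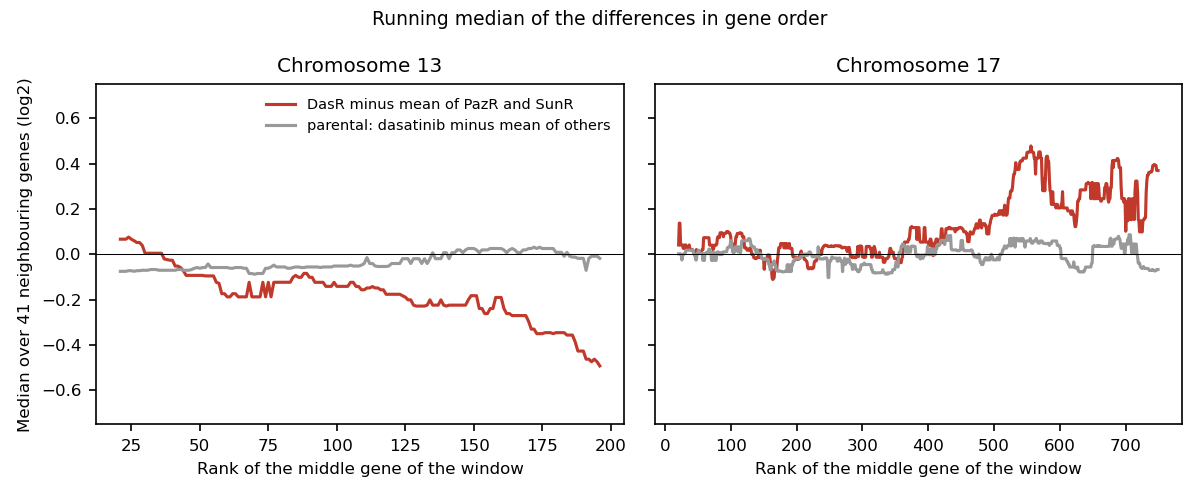
Median difference (log2) over 41 neighbouring genes, by rank of the middle gene along chromosomes 13 and 17, for DasR minus the mean of PazR and SunR (red) and for dasatinib minus the mean of the other drugs in parental cells (grey). The red line reaches 0.48 on the distal part of chromosome 17 and -0.49 at the end of chromosome 13, and the grey line stays near 0.

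The threshold separated no distinct groups of genes. Just inside it lay AKAP1, with a gap of 1.01, and PAK6, just past -1. Just outside it lay DANCR, at 0.999, and SAMD9, at -0.993. Of the 50 higher genes, 33 had a single probe, and among the 17 with several, 4 had more than 1 called. Of the 192 lower genes, 105 had a single probe, and among the 87 with several, 33 had more than 1 called.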

How the data were processed

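RNA from each culture was hybridized to 1 Illumina HumanHT-12 array. The authors preprocessed the bead signals with beadarray (version not given in the sources used here), took log2 intensity and applied quantile normalization, and these log2 values were deposited. Once sorted, every other array differed from DasR by at most 0.00117, so overall differences in signal between arrays are removed. Background treatment, detection and batches are not given in the sources used here. Precision is limited by how few arrays there were. The platform annotation and RefSeq gave 1 symbol for 30113 probes, several for 8 and none for 17986, and unnamed probes stayed in every count. Differences and counts were computed per probe in Python 3.11.15 with pandas 2.3.3 and numpy 2.4.6, and the counting was tested on simulated data. No p-value was computed.

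Gene lists (52, with 1064 of 1154 entries measured) use the brightest probe of a gene for values and any probe for calls. Region values use 1 probe per gene among the brighter 50% of the probes. The members and lists were chosen with earlier results of these data known. The genes named are the receptors and SMARCB1, the 15 highest and 15 lowest by gap, the 5 of largest gap in the same and in the opposite direction to the drug, and up to 4 called genes per list and region. SRC, YES1, IGF2, SDF2L1, COL6A1, FZD6, BAALC, MAP2K6, ERCC5, AKAP1, DANCR, PAK6, SAMD9 and the genes that bound a window were named after their values were seen. Alternatives were other thresholds, an offset, other probe sets, centering, and leaving out each array or drug.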

Additional observations from a re-analysis of the deposited data

Results flagged for a closer look

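In 3 of the named genes, by the probe of largest gap, the gap of DasR among the sublines and the gap of the dasatinib array among the treated parental arrays were both over 0.5 in size and had opposite signs. FGFR3 had a gap of 1.91 in the sublines and -0.995 in parental cells. SMAGP had -2.81 and 0.63, and AKAP12 had -1.504 and 0.60. With 1 array per drug in each set, these differences were not tested. On no other probe of these genes was the parental gap over 0.5 in size. The brighter SMAGP probe had a subline gap of -2.72, but parental signals of 11.88 in dasatinib and 11.96 in sunitinib. The brighter AKAP12 probe had -1.30, with 8.27 and 8.23 and with 7.89 in pazopanib. Its signs were thus still opposite, with a small parental gap. The other FGFR3 probe was dim. A further TOX2 probe, not the one described above, had gaps of -1.60 and 0.81, and RNY4, noticed after its values were seen, had -1.01 and 0.51.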

How the results depend on the processing

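The counts depend most on how many sublines DasR is set against and on the threshold. With only PazR or only SunR left for comparison, 129 to 340 probes were higher and 349 to 762 lower, of which 111 to 285 and 311 to 657 had a small parental drug difference; without the sunitinib subline the counts were 129 and 349, and without the pazopanib subline 340 and 762. Leaving out the parental array in pazopanib or sunitinib gave 44 and 51 higher and 176 and 216 lower probes with a small drug difference. A threshold of 1.5-fold gave 471 and 646 probes, and one of 4-fold gave 9 and 59. Adding 50 to the linear intensity gave 45 and 184. Distal 17q had a median of 0.28 to 0.29 and chromosome 13 of -0.15 to -0.11 with 1 other subline left out, 17q 0.26 with the offset, and 0.11 and -0.046 over all probes. The correlation with the parental drug difference was 0.146 to 0.180 with 1 drug left out of both sets. Centering, the brighter 50% of the probes, 1 probe per gene and other drug thresholds kept the counts within 1.5 times. Of 87 called named genes, INF2 (-0.30) and ZMAT3 (0.018) turned sign when only the brightest probe was used, the only reversals among 522 values. No paired analysis was possible because each drug has 1 array in each set and the results come from no test.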
